A study of Mus musculus with 24 samples.

Results

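Scx, Mkx, Tnmd and Thbs4 are genes by which tendon progenitor cells and developing tendon are recognised. They were taken by name, under a rule that uses no measured value but was set with earlier results of these data known. They are 4 of the 56748 genes in the deposited count table. All 4 passed the filter on low counts in every comparison below. They were followed through 24 bulk RNA-seq libraries of dental mesenchyme from the mandibular first molar of ICR mouse embryos, at the cap stage (E13) and the bell stage (E15). The libraries fall into 8 groups of 3. Cap-W and Bell-W carry the label W and no side, and are called the undivided mesenchyme here. Cap-L and Bell-L are the lingual parts, towards the tongue, and Cap-B and Bell-B are the buccal parts, towards the cheek. Cap-L + 2D and Cap-B + 2D are the cap-stage parts after 2 days of culture in vitro. No group carries a transgene or a deletion in the labels. The germ was split with a fine needle where a side is given, the mesenchyme was freed from the epithelium with dispase II, and RNA was taken with TRIzol. Embryos of several pregnant mice were used, and the sources used here do not say which embryos entered which library, so the p-values below measure only the spread between these libraries, which may be technical.

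Tendon cells of the head arise from neural crest, and they connect muscle, whose cells come from another source, to cartilage and bone. Scx (scleraxis) is a basic helix-loop-helix transcription factor that marks tendon progenitors from their first appearance, and Mkx (Mohawk) is a homeobox transcription factor that acts in the later assembly of collagen fibrils. Tnmd (tenomodulin) is a transmembrane glycoprotein of maturing tendon cells whose expression depends on Scx, and Thbs4 (thrombospondin-4) is a secreted matrix protein of tendon and of its junction with muscle. Mkx and Thbs4 are also expressed outside tendon, so neither marks tendon cells alone. Whether Scx and Tnmd mark only tendon cells in this tissue was not tested. They were higher on opposite sides of the germ in every side comparison below, so their levels are not read as a measure of tendon cells.

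Counts per library totalled between 20581720 and 39266497. Levels are normalised CPM (read counts scaled to a common library size), and a value per kilobase of exon is used wherever genes are set against each other. The dental mesenchyme markers Msx1, Pax9, Lhx6, Lhx8, Barx1, Dlx1 and Dlx2 summed to between 1086 and 2170 CPM in every library. Other cells were present too. The 8 epithelial markers summed to between 88.3 and 1847 CPM, with the highest sum in Bell-W replicate 3, where the other 2 Bell-W libraries had 543 and 466. Cap-W replicate 1 stood apart, with 5.39% of its counts on the ribosomal RNA gene Rn18s-rs5 and 7.95% on mitochondrial genes, while Cap-W replicates 2 and 3 had 0.264% and 0.304%, and 3.00% and 3.14%. Bell-W replicates 1 and 2 also had raised shares on Rn18s-rs5, 1.30% and 1.43%, against 0.223% in replicate 3, and no library of the other 6 groups was above 0.298%.

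In the GRCm39 coordinates of the count table, Scx (ENSMUSG00000034161) occupies chr15:76341652-76343658 on the plus strand. It lies inside Bop1 (chr15:76337189-76361477, minus strand), a ribosome biogenesis gene, and shares no exon base with it. The counting took no account of strand, so a read from unspliced Bop1 RNA over the Scx exons cannot be told apart from a Scx read, and Bop1 is given beside Scx below. The Bop1 values are counts over its own exons and do not measure that unspliced RNA. Its part in the Scx counts was not tested. Tnmd (ENSMUSG00000031250) lies at chrX:132751729-132766326 on the plus strand, and Thbs4 (ENSMUSG00000021702) at chr13:92888098-92931326 on the minus strand. Neither shares exon bases with another gene. The position of Mkx is given with its levels.

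Tnmd and Thbs4 both rose from the cap to the bell stage in all 3 kinds of tissue, as given below, so the 250 bases before their start sites are shown, from RefSeq on GRCm38.p6 and read 5′ to 3′ along the gene. Capitals mark the E-box letters CANNTG, the core that basic helix-loop-helix factors such as Scx read, which are the same on both strands.
Tnmd, chrX:133850758-133851007, plus strand: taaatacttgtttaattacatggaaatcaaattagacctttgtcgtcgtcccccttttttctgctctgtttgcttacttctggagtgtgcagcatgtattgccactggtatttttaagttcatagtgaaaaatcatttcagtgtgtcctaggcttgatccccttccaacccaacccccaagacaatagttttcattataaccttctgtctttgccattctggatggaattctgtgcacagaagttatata
Thbs4, chr13:92794819-92795068, minus strand: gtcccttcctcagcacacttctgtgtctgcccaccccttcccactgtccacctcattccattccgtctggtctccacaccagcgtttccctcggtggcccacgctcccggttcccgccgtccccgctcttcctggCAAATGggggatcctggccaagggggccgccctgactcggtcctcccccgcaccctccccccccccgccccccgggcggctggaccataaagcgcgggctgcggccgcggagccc
The Thbs4 window held 1 match and the Tnmd window held 0. Among the 32851 promoter windows of this length, 66.2% held at least 1 match. A match is a run of letters and not a measured site, and the lack of one says only that these letters are not in this window.

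Scx was low in all 24 libraries, with 49 to 294 reads per library. In Cap-L it stood at 2.40, 3.06 and 2.22 CPM in replicates 1, 2 and 3, and in Cap-B at 3.79, 4.23 and 3.62. In Bell-L it stood at 1.86, 1.97 and 1.99 CPM, and in Bell-B at 4.72, 4.02 and 4.14. Every buccal library lay above every lingual library of its stage, as did the libraries of 23.9% of all genes tested in the cap tissue and 21.9% in the bell tissue. After culture the values were 2.63, 2.32 and 2.98 CPM in Cap-L + 2D and 4.56, 4.74 and 4.78 in Cap-B + 2D, again without overlap (30.0% of all genes). The undivided mesenchyme had 16.3, 7.14 and 7.16 CPM in Cap-W and 3.85, 3.14 and 4.36 in Bell-W. In the order of group means, Cap-W came first and its libraries did not overlap with the next group. Cap-B + 2D, Bell-B, Cap-B and Bell-W followed and overlapped each with its neighbour. Cap-L + 2D and Cap-L overlapped each other below them, and Bell-L was last and apart. Shares of all genes were not counted for every pair of neighbours in this order or the orders below. Lying apart from a neighbour is therefore only a description.

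Mkx (ENSMUSG00000061013) occupies chr18:6934518-7004780 on the minus strand of GRCm39, and 4.91% of its exon bases are shared with Gm2350, over which reads were not counted. It had the opposite side pattern to Scx. Cap-L held 40.3, 42.1 and 41.9 CPM and Cap-B held 20.5, 17.9 and 17.1. Bell-L held 27.5, 29.5 and 30.3 CPM and Bell-B held 20.2, 21.6 and 18.7. The lingual libraries lay above the buccal libraries in both stages, as for 28.5% and 23.6% of all genes. After culture the lingual part had 20.7, 19.9 and 21.4 CPM and the buccal part 10.3, 9.33 and 10.4, apart from each other (29.1% of all genes) and each below its fresh cap tissue (34.7% of all genes in the lingual and 34.2% in the buccal part). The undivided libraries were spread widely, at 20.9, 39.95 and 22.8 CPM in Cap-W and at 26.99, 30.3 and 17.6 in Bell-W. Cap-L stood first and apart, and Cap-B + 2D last and apart. Bell-L, Cap-W, Bell-W, Cap-L + 2D, Bell-B and Cap-B, in this order, overlapped each with its neighbour.

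Tnmd ranged widely. It stood at 9.44, 8.38 and 8.16 CPM in Cap-L and at 3.11, 2.59 and 2.37 in Cap-B. At the bell stage it stood at 25.03, 29.5 and 25.9 CPM in Bell-L and at 14.1, 14.8 and 13.4 in Bell-B. Each lingual library lay above each buccal library of its stage, and each bell library above each cap library of its side (28.5% of all genes in the lingual and 29.1% in the buccal part). After culture the values were 31.5, 30.5 and 26.1 CPM in Cap-L + 2D and 12.8, 11.0 and 11.3 in Cap-B + 2D. The undivided mesenchyme went from 1.78, 2.14 and 1.83 CPM in Cap-W, the lowest of all groups, to 19.2, 21.1 and 15.7 in Bell-W. Only the first 2 groups in the order, Cap-L + 2D and Bell-L, overlapped. The rest, Bell-W, Bell-B, Cap-B + 2D, Cap-L, Cap-B and Cap-W, each lay apart from the next. Cap-L lay above Cap-B without overlap for 28.5% of all genes, and not every other pair of neighbours has such a share.

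Thbs4 overlapped between the sides of the fresh cap tissue, at 21.0, 21.4 and 20.3 CPM in Cap-L and 20.9, 20.6 and 19.5 in Cap-B. At the bell stage it reached 161, 155 and 154 CPM in Bell-L and 143, 133 and 138 in Bell-B. After culture it stood at 83.5, 82.0 and 86.1 CPM in Cap-L + 2D and at 19.2, 18.1 and 18.2 in Cap-B + 2D, so that the lingual libraries lay above their fresh tissue (32.7% of all genes) and the buccal libraries below theirs (34.2% of all genes), the latter by a difference under the fold limit used below. The undivided mesenchyme had 7.39, 4.84 and 4.29 CPM in Cap-W, below all other groups, and 102, 222 and 208 in Bell-W. At the top the range of Bell-W enclosed that of Bell-L, with Bell-W replicate 1 below and replicates 2 and 3 above every Bell-L library. Cap-L and Cap-B overlapped in the lower part of the order, and the other neighbours were apart.

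**Figure D1:**
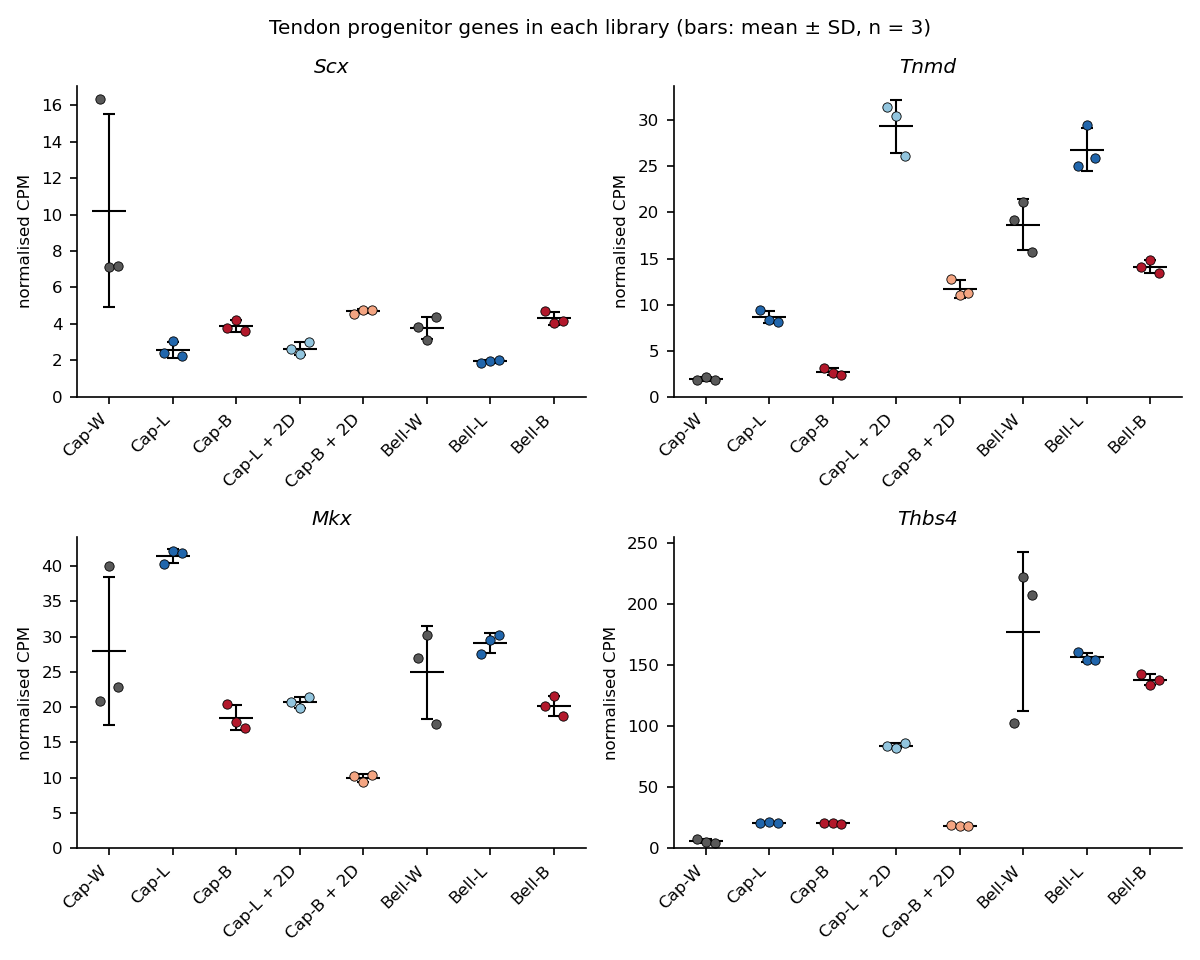
Normalised CPM (vertical axes from 0) of Scx, Tnmd, Mkx and Thbs4 in the 8 groups (horizontal axes), with 1 point per library and the mean ± SD of 3 libraries. Scx is higher in each buccal group than in its lingual partner, Tnmd and Mkx are lower there, and Thbs4 differs widely between the sides only after culture.

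The comparison of the buccal with the lingual part asks how the tissue differs along the axis on which the germ was split. At the cap stage 3 of the 4 genes were called by edgeR's quasi-likelihood test, where a call is an adjusted p under 0.05 with an absolute log2 fold change over 0.5, and where 17.5% of all 20653 genes tested were called. The share of all genes called higher in the buccal part was 10.4% and the share called lower was 7.10%. Scx was 1.52-fold higher in the buccal part (log2 fold change 0.61, 95% interval 0.30 to 0.91, adjusted p = 0.00244). Tnmd was 3.17-fold lower there (log2 fold change -1.66, interval -1.92 to -1.41, adjusted p = 2.27e-09), and Mkx was 2.21-fold lower (-1.14, interval -1.28 to -1.01, adjusted p = 5.37e-11). Thbs4 was not called, and the interval of its log2 fold change, -0.14 to 0.11, held 0. With all 24 libraries in 1 fit, the Scx difference had an adjusted p of 0.0860 and was no longer called. Bop1 went against Scx at this stage, with a log2 fold change of -0.28 that was under the fold limit.

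At the bell stage the same 3 genes were called, against 12.9% of all 21181 genes tested, with 6.00% called higher and 6.88% lower. Scx was 2.21-fold higher in the buccal part (log2 fold change 1.14, interval 0.86 to 1.42, adjusted p = 4.99e-09). Tnmd was 1.90-fold lower (-0.93, interval -1.06 to -0.80, adjusted p = 7.61e-16) and Mkx was 1.45-fold lower (-0.53, interval -0.65 to -0.41, adjusted p = 3.54e-10). The Mkx difference lay close to the fold limit and fell under it, at -0.48, without Bell-B replicate 3, and its adjusted p was 0.0509 with all 24 libraries in 1 fit. Thbs4 differed by a small amount (log2 fold change -0.18, adjusted p = 2.31e-05) that was under the fold limit, although its libraries did not overlap. Bop1 had a log2 fold change of 0.15.

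After culture all 4 genes were called, against 25.1% of all 21195 genes tested (12.5% in each direction). Scx was 1.75-fold higher in Cap-B + 2D than in Cap-L + 2D (log2 fold change 0.80, interval 0.55 to 1.06, adjusted p = 5.32e-06). Tnmd was 2.49-fold lower (-1.32, interval -1.47 to -1.16), Mkx 2.07-fold lower (-1.05, interval -1.19 to -0.91), and Thbs4 4.55-fold lower (-2.19, interval -2.29 to -2.09, adjusted p = 2.13e-22). Bop1 had a log2 fold change of 0.19. Per kilobase, Scx came to between 0.0457 and 0.0573 of Bop1 in Cap-L and to between 0.0884 and 0.114 of it in Cap-B, and to between 0.0522 and 0.0606 in Bell-L against 0.108 to 0.122 in Bell-B.

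**Figure D2:**
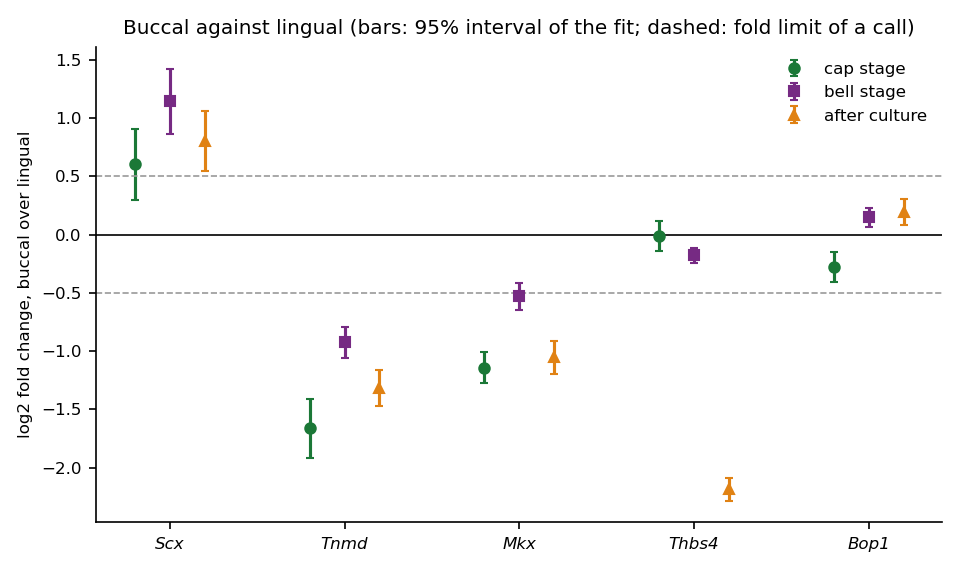
Log2 fold change of the buccal over the lingual part (vertical axis) of the 4 genes and of Bop1, with the 95% interval of the fit, at the cap stage, the bell stage and after culture; dashed lines mark the fold limit of 0.5. Scx lies above the upper line in all 3 comparisons, Tnmd and Mkx lie under the lower line, and Thbs4 does so only after culture.

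The opposite sides of Scx and Tnmd made their ratio within a library differ more than either gene. Per kilobase, Tnmd came to between 4.06 and 5.84 times Scx in Cap-L and to between 0.911 and 1.22 times Scx in Cap-B. It came to between 19.3 and 22.2 times Scx in Bell-L and to between 4.43 and 5.46 times in Bell-B. After culture the ratio was 13.0 to 19.5 in the lingual libraries and 3.45 to 4.17 in the buccal libraries. In Cap-W the ratio was between 0.161 and 0.444, the only group in which Scx stood above Tnmd per kilobase in every library.

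The side difference itself changed with the stage for 3 of the 4 genes (edgeR interaction over 12 libraries, where 32.5% of 21931 genes had an adjusted p under 0.05). The log2 side difference was larger at the bell than at the cap stage by 0.53 for Scx (adjusted p = 0.0384), by 0.73 for Tnmd (adjusted p = 1.68e-04) and by 0.61 for Mkx (adjusted p = 3.06e-06), which widened the buccal excess of Scx and narrowed the lingual excess of Tnmd and Mkx. Bop1 moved the same way by 0.42 (adjusted p = 1.13e-04). The Scx interaction did not pass in 7 of the 12 fits that left out 1 library. It was lost without Cap-L replicate 2, Cap-B replicate 1 or 3, Bell-L replicate 1, 2 or 3, or Bell-B replicate 1 (adjusted p = 0.0598 to 0.169), and it was lost in DESeq2 (adjusted p = 0.126). With all 24 libraries in 1 fit the Scx and Mkx interactions had adjusted p of 0.373 and 0.118. Thbs4 had an interaction of -0.17 (adjusted p = 0.0525). With culture, 35.5% of 22098 genes passed this test, and of the 4 genes only Thbs4 did, by -2.17 (adjusted p = 1.03e-19). The interactions of Scx, Mkx and Tnmd with culture were 0.20 (95% interval -0.19 to 0.59), 0.09 (-0.11 to 0.28) and 0.34 (0.02 to 0.66), with adjusted p of 0.461, 0.528 and 0.0891. Bop1 had 0.47 (adjusted p = 1.37e-04).

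The comparison of bell with cap asks how the mesenchyme changed as the crown took shape. In the lingual part 3 of the 4 genes were called, against 20.0% of all 21425 genes tested, and in the buccal part 2 were called, against 18.7% of 21992. Tnmd was 3.12-fold higher at the bell stage in the lingual part (log2 fold change 1.64, interval 1.47 to 1.82) and 5.22-fold higher in the buccal part (2.38, interval 2.17 to 2.60). Thbs4 was 7.52-fold higher in the lingual part (2.91, interval 2.81 to 3.01) and 6.75-fold higher in the buccal part (2.75, interval 2.66 to 2.85). The adjusted p of these 4 differences were all at or below 2.53e-14. Mkx fell by 0.50 on the log2 scale in the lingual part (adjusted p = 2.68e-08), at the fold limit itself, and it was under the limit with RLE normalization and without Cap-L replicate 2 (-0.49) or Bell-L replicate 1 (-0.47). Its log2 fold change in the buccal part was 0.12 (interval -0.02 to 0.26). Scx had -0.40 in the lingual part (adjusted p = 0.0414, under the fold limit), where Bop1 had -0.49, and 0.14 in the buccal part (interval -0.10 to 0.38), where Bop1 had -0.06.

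In the undivided mesenchyme 3 genes were called between the stages, against 14.5% of 20940. Thbs4 was 32.2-fold higher at the bell stage (log2 fold change 5.01, interval 4.17 to 5.85, adjusted p = 3.06e-04) and Tnmd was 9.56-fold higher (3.26, interval 2.80 to 3.71, adjusted p = 2.19e-04). Scx fell by 1.43 on the log2 scale (interval -2.25 to -0.61, adjusted p = 0.0313), and that call was lost when any 1 of the 3 Bell-W libraries was left out (adjusted p = 0.0562 to 0.117). Without Cap-W replicate 1 it was -0.94. Bop1 had -0.09 in this comparison. Mkx had a log2 fold change of -0.19 (interval -0.87 to 0.50), and its sign turned without Cap-W replicate 2 (0.18) or Bell-W replicate 3 (0.01).

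The undivided libraries were not a mean of their parts at the cap stage. Scx in the 3 Cap-W libraries lay above all 6 libraries of Cap-L and Cap-B, as did 11.7% of all genes, and its mean was 3.17 times the mean of the parts. Tnmd and Thbs4 lay below all 6, as did 17.6% of all genes, at 0.338 and 0.267 of the mean of the parts. Mkx overlapped with the parts, at 0.931 of their mean. In Bell-W none of the 4 genes had all 3 libraries above all 6 of the parts, or all 3 below. Of all genes, 9.12% lay above and 9.82% below all 6. The ratios were 1.21 for Scx, 0.912 for Tnmd, 1.01 for Mkx and 1.21 for Thbs4. For Thbs4 the parts ranged from 133 to 161 CPM, and the Bell-W libraries lay on both sides of that range. Replicate 1 was below it, at 102 CPM, and replicates 2 and 3 were above it, at 222 and 208. The summed muscle contractile genes of Bell-W did lie below both of its parts, as given below. The bell-over-cap folds of the undivided mesenchyme therefore start from cap libraries that lay outside their own parts for 3 of the 4 genes. The Cap-W library with the highest Scx, replicate 1, is the one with the high ribosomal and mitochondrial shares, and the other 2 libraries, at 7.14 and 7.16 CPM, were still above every other group. In Bell-W, replicate 3 had the lowest Tnmd and Mkx and the highest Scx of its group. It is the library with the high epithelial sum, and also the only Bell-W library without a raised Rn18s-rs5 share. The part of these differences between libraries in the levels was not tested.

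Culture of the cap-stage parts gave a different account for each gene. In the lingual part 3 genes were called between the cultured and the fresh tissue, against 35.4% of all genes tested, and in the buccal part 2 were called, against 34.5%. Tnmd was 3.40-fold higher after culture in the lingual part (log2 fold change 1.76, interval 1.59 to 1.94) and 4.33-fold higher in the buccal part (2.11, interval 1.89 to 2.33). Mkx was 1.99-fold lower (-0.99, interval -1.11 to -0.88) and 1.86-fold lower (-0.90, interval -1.05 to -0.74). Thbs4 was 4.03-fold higher in the lingual part (2.01, interval 1.91 to 2.11), while in the buccal part it had -0.15 (interval -0.27 to -0.04), under the fold limit. Scx was not called on either side, with 0.05 (interval -0.27 to 0.36) in the lingual part and 0.25 (interval 0.02 to 0.49, adjusted p = 0.0495) in the buccal part. The latter was under the fold limit, with every cultured buccal library above every fresh one (34.8% of all genes). Bop1 had -0.33 and 0.15 in the same comparisons.

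Set against the bell stage, which the cultured tissue would have reached in the embryo, Tnmd after culture was close to its level in Bell-L (log2 fold change 0.12, interval -0.03 to 0.27) and was 1.21-fold lower than in Bell-B, under the fold limit. Thbs4 was lower after culture than at the bell stage on both sides, 1.87-fold in the lingual part and 7.50-fold in the buccal part. In the lingual part only Thbs4 was called, against 31.2% of all genes, and in the buccal part Thbs4 and Mkx were called, against 31.8%. Mkx was 2.02-fold lower than in Bell-B and 1.41-fold lower than in Bell-L, the latter under the fold limit at -0.49. Scx had 0.45 in the lingual part (adjusted p = 0.0190, under the fold limit) and 0.11 in the buccal part, beside 0.16 and 0.21 for Bop1. The bell-over-cap and the cultured-over-fresh changes of a side share the same fresh cap libraries.

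**Figure D3:**
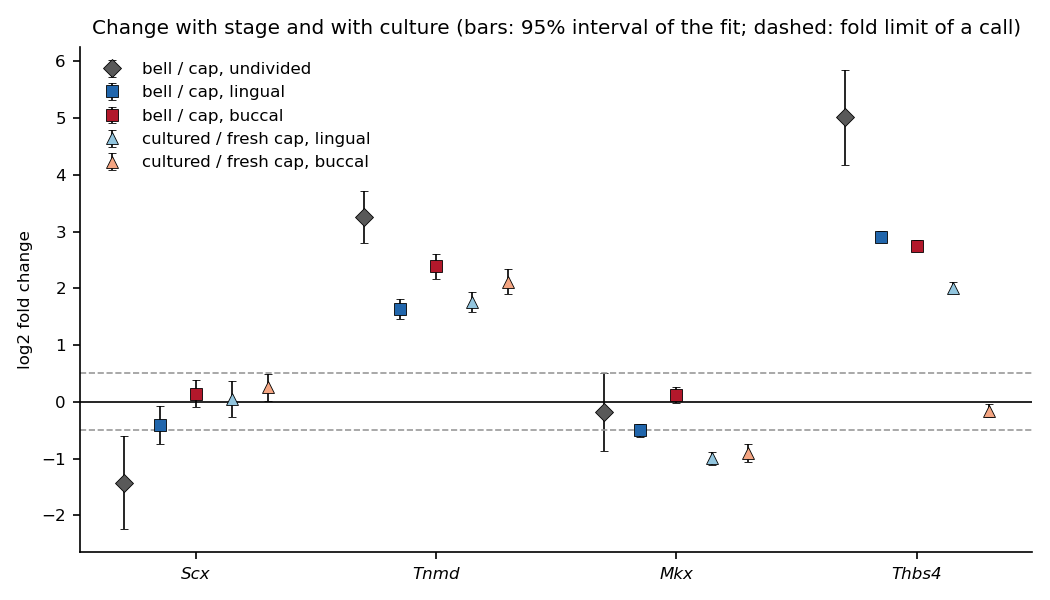
Log2 fold change (vertical axis) of each gene from cap to bell in the undivided, lingual and buccal tissue, and from fresh to cultured cap tissue on each side, with the 95% interval of the fit and dashed lines at the fold limit of 0.5. Tnmd lies above 1.5 in all 5 comparisons, Thbs4 in all but the cultured buccal part, Mkx lies near -1 in culture, and Scx is within 0.5 of 0 except in the undivided tissue.

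The buccal part was rich in muscle RNA in all 3 side comparisons. Myod1 and Myog, regulators of muscle differentiation, were at 13.2 ± 0.768 and 23.1 ± 2.97 CPM in Cap-B against 0.477 ± 0.0503 and 1.95 ± 0.0504 in Cap-L (mean ± SD, n = 3). Myh3, the embryonic myosin heavy chain, was at 44.8 ± 3.17 CPM against 2.45 ± 0.119, and Acta1, skeletal actin, at 12.0 ± 0.284 against 1.85 ± 0.0980. Of the 22 contractile genes listed, 20 were tested and all 20 rose in the buccal part at the cap stage, 20 of 21 tested at the bell stage and 20 of 20 after culture. The list of 12 muscle progenitor and myoblast genes gave 10 of 11 tested, 11 of 12 with 1 lower, and 11 of 12.

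Summed over the 22 contractile genes, the lingual libraries held 52.2 to 53.7 CPM in Cap-L, 196 to 205 in Bell-L and 509 to 547 in Cap-L + 2D. The buccal libraries held 352 to 360, 1505 to 1553 and 6076 to 6447. Cap-W held 55.3 to 60.7 CPM, close to Cap-L. Bell-W held 36.8 to 46.3 CPM, below every library of Bell-L and of Bell-B. For these genes Bell-W was therefore not a mean of its parts. In Cap-L, Ckm of the contractile list and Myf6 of the progenitor list were at 0 in all 3 libraries. Scx was higher in the muscle-rich, buccal partner of each pair. Its buccal means, 3.88 CPM in Cap-B, 4.29 in Bell-B and 4.69 in Cap-B + 2D, also stood in the order of the muscle sums, although neighbours in this order overlapped. Its lingual means, 2.56 in Cap-L, 1.94 in Bell-L and 2.64 in Cap-L + 2D, did not stand in that order, and the group with the highest Scx, Cap-W, had muscle sums close to those of Cap-L. Tnmd and Mkx were lower in the muscle-rich partner of each pair. In bulk tissue, fewer cells of a type and less RNA per cell cannot be told apart, and the part of muscle RNA in the levels of the 4 genes was not tested. Leaving the listed muscle genes out of the scaling changed no call of the 4 genes in the 12 comparisons.

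**Figure D4:**
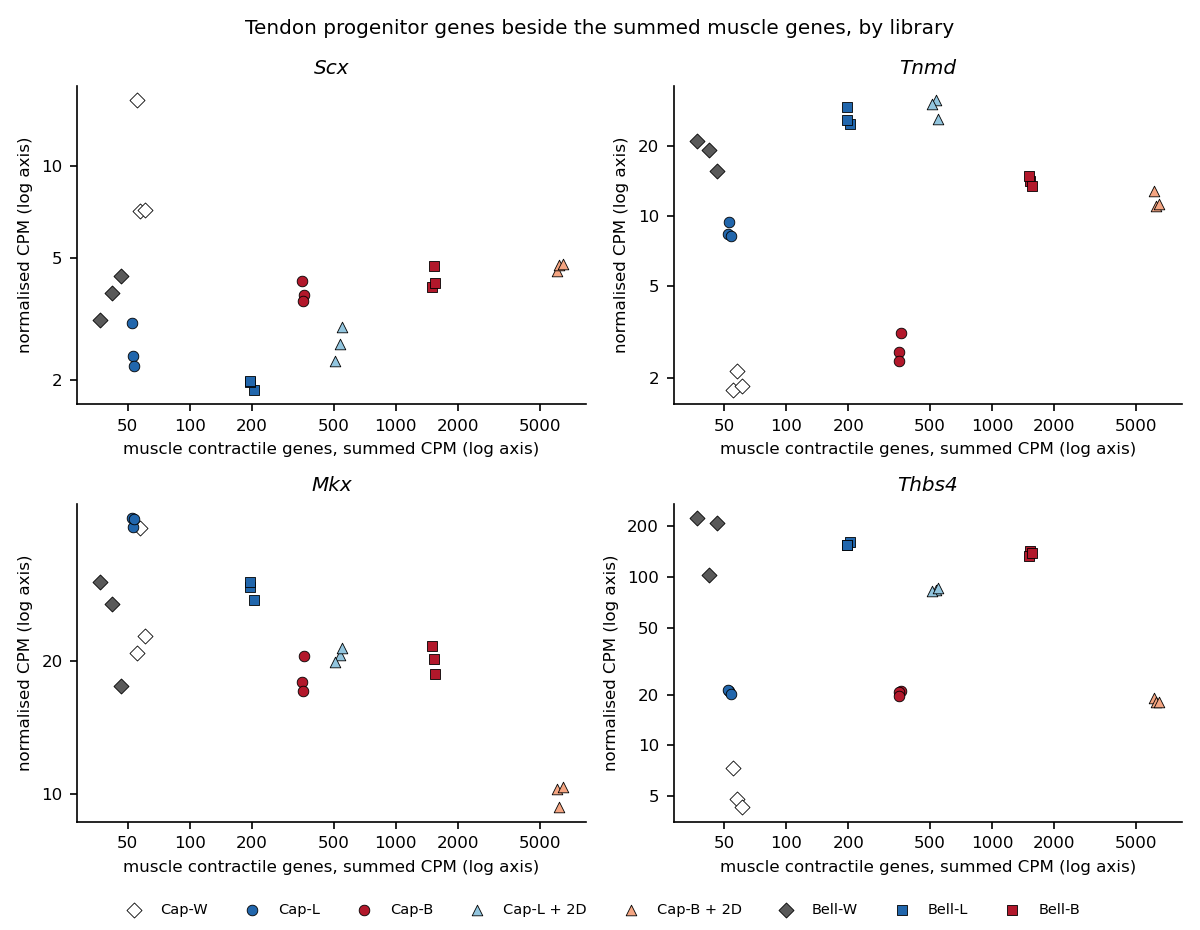
Normalised CPM of each of the 4 genes (vertical log axes) against the summed CPM of 22 muscle contractile genes (horizontal log axes), with 1 point per library and a symbol and colour per group. Within each lingual and buccal pair the buccal points lie further right, with Scx higher and with Tnmd and Mkx lower, and the open Cap-W points lie at the left with the highest Scx.

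Other tendon genes did not share 1 side. Of the 28 genes listed for tendon matrix, 13 were higher and 5 lower in the buccal part at the cap stage (27 tested, median log2 fold change 0.40, against -0.01 over all genes tested). At the bell stage 6 were higher and 8 lower (28 tested, median 0.02), and after culture 6 were higher and 11 lower (28 tested, median -0.16). Kera (keratocan) was at 68.3 ± 3.597 CPM in Cap-B and 2.17 ± 0.232 in Cap-L, a log2 fold change of 5.01, and Col14a1 was at 109 ± 0.343 and 7.26 ± 0.0895, a log2 fold change of 3.93. Lox, which cross-links collagen, and Dcn (decorin) followed with 2.39 and 2.15. Col14a1 is also on the list for muscle connective tissue. Whether the genes of the matrix list, of either side, mark tendon cells in this tissue was not tested. The lingual side was led by Tnc (tenascin-C, -1.34) and Postn (periostin, -1.10), which are expressed well beyond tendon, with Htra3 (-0.64) and Thbs3 (-0.62). Tnxb (tenascin-X) had a larger difference, -3.14, at a lower level (0.700 ± 0.181 against 6.30 ± 0.672 CPM), and is named here after its value was seen.

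Kera and Col14a1 remained among the 4 largest buccal differences of the list at the bell stage (3.86 and 1.54) and after culture (3.71 and 1.52), as was Prelp, another proteoglycan, with 2.02 and 1.46 (1.10 at the cap stage). Fmod (fibromodulin) had 1.71 at the bell stage and Fibin had 1.58 after culture. Tnc and Aspn (asporin) were lower in Bell-B than in Bell-L (-1.21 and -1.21) and after culture (-1.05 and -1.003). Postn at the bell stage had -1.39 and Col12a1 had -0.81. After culture Tnxb and Htra3 had -1.05 and -1.02.

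The 26 genes listed as tendon regulators and signals were split as well, with 4 higher and 6 lower in the cap tissue (23 tested), 3 and 6 in the bell tissue (24 tested) and 6 and 6 after culture (24 tested), and medians of -0.04, -0.09 and -0.07. The ligands of the TGF-beta family, which induce Scx in other tissues, went to opposite sides in the cap tissue, fresh and cultured. Tgfb2 was at 125 ± 4.07 CPM in Cap-B and 29.4 ± 0.889 in Cap-L (log2 fold change 2.11), and Tgfb3 at 77.9 ± 0.519 and 174 ± 4.61 (-1.13). Tgfb2 was called higher in the buccal part after culture as well (0.96). From cap to bell it rose in the lingual part and fell in the buccal part, as given below. Tgfb3 remained lower in Bell-B (-0.69) and in Cap-B + 2D (-1.48), and 12.4% of its exon bases are shared with other genes. Tgfbr2, a receptor of this family, was lower in Bell-B (-0.72). The growth differentiation factors did not share a side. Gdf7 was higher in the buccal part in all 3 comparisons (1.95, 1.02 and 2.46), while Gdf6 was higher in Cap-B (0.66) and lower in Cap-B + 2D, at 3.30 ± 0.0978 against 9.74 ± 0.704 CPM (-1.56, adjusted p = 9.74e-13), the largest lingual difference of the regulators named after culture. Eya1, a transcriptional co-activator, was higher in all 3 (0.97, 0.71 and 0.95), and its relative Eya2 was lower in Cap-B (-0.90). Chodl (chondrolectin), a membrane protein, was lower in Bell-B, at 116 ± 1.62 against 293 ± 7.48 CPM (-1.33). Of the FGF pathway, the transcription factor Etv4 was lower in Cap-B (-0.87) and the receptor Fgfr2 in Cap-B + 2D (-0.98). Six2, a homeobox factor of head mesenchyme, was lower in all 3 (-1.23, -0.74 and -0.85). Mstn (myostatin), which muscle also expresses, was 3.35 higher on the log2 scale after culture. Fgf4, which is at 0 in all 3 Cap-B libraries, was at 1.06 ± 0.203 CPM in Bell-L and 0.352 ± 0.138 in Bell-B (-1.61).

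**Figure D5:**
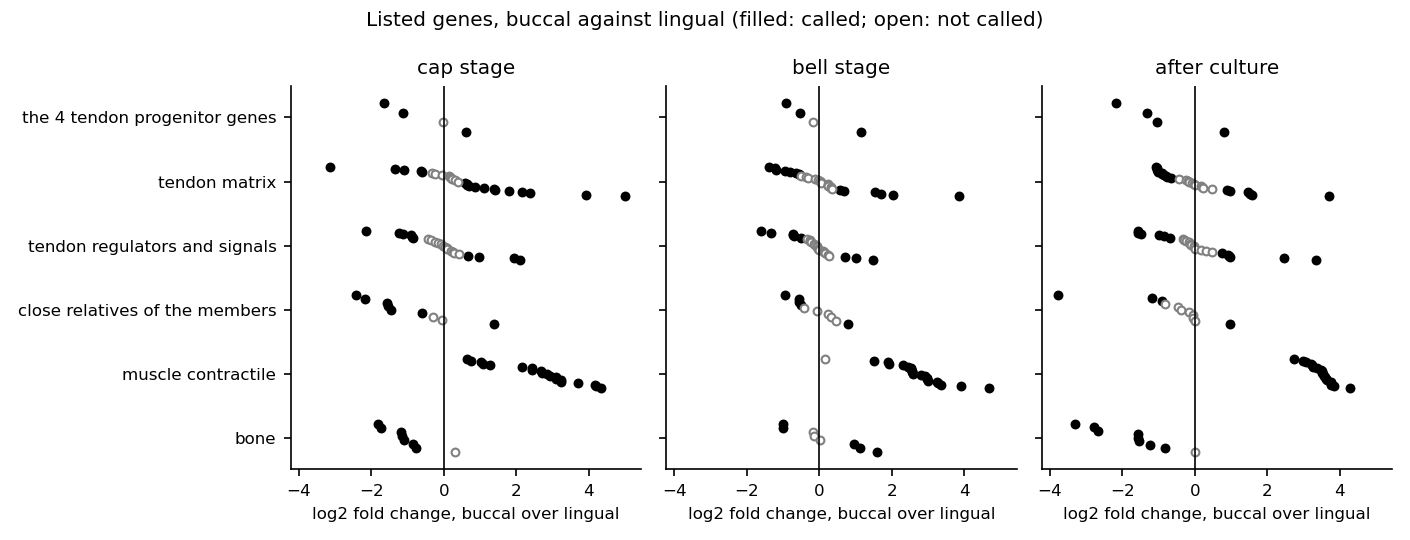
Log2 fold change of the buccal over the lingual part (horizontal axes, shared) for each gene of the lists on the vertical axis, at the cap stage, the bell stage and after culture; filled points were called and open points were not. The muscle contractile genes lie to the right in all 3 panels, while the 4 tendon progenitor genes and the tendon lists have called members on both sides.

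With stage and culture the tendon matrix list moved mostly 1 way. From cap to bell 19 of its 28 genes rose and 1 fell in the undivided mesenchyme, 18 rose and 1 fell in the lingual part, and 14 rose and 2 fell in the buccal part. After culture 23 rose and 0 fell in the lingual part, and 15 rose and 1 fell in the buccal part. The shares of all genes called higher in these 5 comparisons were 10.3%, 14.2%, 12.0%, 19.6% and 17.9%, and those called lower 4.21%, 5.78%, 6.73%, 15.9% and 16.6%. Col14a1 rose in all 5, by 2.90, 3.69, 1.31, 4.01 and 1.61 on the log2 scale, and Aspn rose by 2.91, 2.62 and 1.26 in the 3 stage comparisons. Prelp rose by 3.64 and Dcn by 2.84 in the undivided mesenchyme, Lox by 2.25 and Dcn by 2.13 in the lingual part, and Htra3 by 1.64 and Thbs2 by 1.02 in the buccal part. Tnc fell with stage in all 3 tissues (-1.07, -0.87 and -0.74), and Kera fell in the buccal part (-1.11). After culture Lox (2.63), Col1a1 (1.94) and Bgn (1.77) rose in the lingual part, and Prelp (1.52), Htra3 (1.36) and Thbs2 (1.28) in the buccal part.

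The regulators and signals moved in both directions with stage, with 7 up and 4 down of 24 tested in the undivided mesenchyme, 7 and 3 of 25 in the lingual part, and 6 and 3 of 24 in the buccal part. The zinc finger factors Egr2 and Egr1 rose in the undivided mesenchyme (2.40 and 1.35), with Chodl (1.55) and Fgfr2 (1.39). In the lingual part Tgfb2 (1.76), Chodl (1.41), Tgfbr2 (0.75) and the growth factor receptor Pdgfra (0.65) rose. In the buccal part Etv4 (1.17), Eya2 (1.01), Dusp6 (0.68) and Spry2 (0.59) rose, while Gdf6 (-1.12) and Tgfb2 (-0.59) fell. Eya1 fell with stage in all 3 tissues (-1.44, -0.59 and -0.84), and Six2 fell in the undivided mesenchyme (-0.94).

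After culture 12 regulators were up and 5 down of 25 tested in the lingual part, and 10 and 4 of 24 in the buccal part. Egr2 rose on both sides (1.26 and 1.33), as did Spry1 (1.36 and 1.43). Tgfb2 (2.01) and Tgfbr2 (1.40) rose in the lingual part, and Spry2 (1.79) and Eya2 (1.26) in the buccal part. Six2 (-1.14 and -0.76) and Eya1 (-0.57 and -0.58) fell on both sides, and Gdf6 fell in the buccal part (-1.49). Of Spry1 and Prelp, 24.4% and 9.68% of exon bases are shared with another gene.

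Genes of other cell types moved with stage and culture as well. From cap to bell the contractile genes rose for 20 of 21 tested in the lingual and 21 of 21 in the buccal part, while in the undivided mesenchyme 0 of 17 rose and 1 fell. Macrophage genes rose for 6 of 6 in the undivided and in the lingual tissue and for 5 of 6 in the buccal part, and their sum went from 62.8 to 63.4 CPM in Cap-L to 245 to 253 in Bell-L. Bone genes rose for 5 of 8 in the undivided mesenchyme, fell for 7 of 9 in the lingual part and rose for 3 of 9 in the buccal part. Endothelial genes rose for 6 of 6, 1 of 6 and 0 of 6, and epithelial genes for 2, 4 and 7 of 8. Tnmd and Thbs4 rose in all 3 tissues beside these.

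After culture the contractile genes rose for 20 of 21 in the lingual and 21 of 21 in the buccal part, and the bone genes for 7 of 9 with 1 down and for 6 of 9 with 2 down. Macrophage genes rose for 5 and 3 of 6. The erythroid genes fell for 6 of 6 on both sides, with sums of 1533 to 1881 CPM in Cap-L and 16.9 to 20.9 in Cap-L + 2D, and of 1802 to 1862 in Cap-B and 23.1 to 26.5 in Cap-B + 2D. Epithelial genes fell for 5 of 8 in the lingual part and for 7 of 8 in the buccal part, where 1 rose, and endothelial genes fell for 2 and 6 of 6. The part of these cell types in the stage and culture changes of the 4 genes and of the tendon lists was not tested.

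The nearest relatives of the 4 genes were followed to see whether their families moved with them. Of the thrombospondins, Thbs1 was higher in the buccal part at the cap stage (375 ± 4.49 against 145 ± 8.70 CPM, log2 fold change 1.40) and after culture (0.98), Thbs3 was lower in all 3 side comparisons (-0.62, -0.55 and -0.90), and Thbs2 was called in none (-0.05, 0.24 and -0.15). Thbs4 was the only 1 of these 4 genes called lower after culture by more than 1 on the log2 scale. Comp, the thrombospondin of cartilage and mature tendon, was at or below 0.826 CPM on average in all 6 divided groups, and was called lower in Bell-B than in Bell-L (-0.96).

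Cnmd (chondromodulin), the closest relative of Tnmd and a cartilage gene, was at 3.47 ± 0.261 CPM in Cap-L and 1.17 ± 0.282 in Cap-B (log2 fold change -1.55), at 1.10 ± 0.260 in Bell-L and 1.502 ± 0.251 in Bell-B (not called), and at 1.04 ± 0.171 and 0.0739 ± 0.0700 after culture, where it was called lower in Cap-B + 2D at a mean below that of 3 reads. It shared the lingual side with Tnmd in the cap tissue, fresh and cultured. From cap to bell Cnmd fell where Tnmd rose, with log2 fold changes of -2.83 in the undivided mesenchyme and -1.66 in the lingual part, and it was not called in the buccal part (0.36). Tcf15 (paraxis), the closest relative of Scx, was at or below 0.908 CPM on average in all 6 divided groups. It was called higher in Bell-B than in Bell-L (0.80, adjusted p = 0.0456), the side of Scx, and was not called in the cap tissue (-0.30) or after culture (-0.83). Tcf15 was called lower at the bell than at the cap stage in the lingual part (-1.14), and lower after culture than in the fresh tissue on both sides (-0.995 and -1.51). The Iroquois genes Irx1, Irx2, Irx3 and Irx5, relatives of Mkx in the same homeobox class, were all lower in Cap-B than in Cap-L (-2.18, -2.43, -1.56 and -1.47), as Mkx was. At the bell stage Irx1 and Irx5 were called lower (-0.55 and -0.50), and after culture none of these 4 was called. Irx4 and Irx6 were at or below 0.539 CPM on average in all 6 divided groups, and Irx6 was called lower in the buccal than in the lingual part after culture (-1.19).

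Genes listed for cartilage, bone and other cell types were also compared between the sides. The shares of all genes called higher in the buccal part were 10.4% at the cap stage, 6.00% at the bell stage and 12.5% after culture. Those called lower were 7.10%, 6.88% and 12.5%. Lists with few or no called genes are not read as differing. The 9 bone genes were lower in the buccal part at the cap stage for 7 of 8 tested and after culture for 8 of 9, and were split at the bell stage with 3 higher and 2 lower of 8. Their sum was 2412 to 2447 CPM in Cap-L + 2D and 603 to 624 in Cap-B + 2D, the pair in which Thbs4 also differed most. Ibsp (bone sialoprotein) was at 1173 ± 26.7 CPM and 120 ± 3.06 there. Cartilage and attachment genes were lower in the buccal part for 7 of 8 tested at the cap stage, with 1 higher, and for 6 of 9 after culture, with 1 higher, while at the bell stage 2 of 10 were higher and 1 lower. Genes listed for muscle connective tissue, the fibroblasts around muscle, were higher for 5 of 7 at the cap stage and 2 of 7 at the bell stage. After culture 3 of 7 were higher and 1 lower. The paper shows Osr2, a gene of this list, in dental mesenchyme, so the list is not read as marking those fibroblasts alone. Glial genes were mostly higher in the buccal part, with 5 and 4 of 6 called higher and 1 lower in the fresh tissue, and 3 of 4 tested higher and 1 lower after culture.

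Epithelial genes were lower in the buccal part for 7 of 8, 2 of 8 and 6 of 8 tested in the 3 comparisons, with 1 higher after culture, and Krt5 stood at 8.33 ± 0.483 CPM in Cap-B + 2D and 159 ± 10.5 in Cap-L + 2D. Endothelial genes were lower after culture for 5 of 6, with none called at the other times. Macrophage genes were lower for 5 of 6 at the bell stage and 3 of 6 after culture, and 1 was higher at the cap stage. Smooth muscle and pericyte genes gave 3 higher and 1 lower, 1 higher, and 3 higher and 3 lower of 7. Dental mesenchyme genes gave 2 higher, 2 higher, and 1 higher and 1 lower of 7, and erythroid genes 0 of 6, 0 of 6, and 2 higher and 1 lower of 4 tested. The part of these cell types in the side differences of the 4 genes was not tested.

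Over all 24 libraries the 4 genes did not form 1 pattern. The Pearson correlations of their log2 CPM, which describe libraries that share groups and depth, were 0.833 for Tnmd with Thbs4, -0.687 for Scx with Tnmd, -0.582 for Scx with Thbs4, -0.325 for Scx with Mkx, 0.060 for Mkx with Thbs4 and -0.0008 for Tnmd with Mkx. Without the 3 Cap-W libraries they were 0.710, -0.425, -0.258, -0.699, 0.248 and 0.145, so that the pair furthest below 0 became Scx and Mkx.

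The genes most like each of the 4 over the 24 libraries, among 14031 or 14032 with enough reads, differed from gene to gene. Tnmd was most like S100a6 (r = 0.975), a calcium-binding protein, followed by Ifi35, Dhrs7, Clec11a and Fyb1 (0.966 to 0.960). S100a6 went from 26.5 CPM in Cap-L and 7.33 in Cap-B to 70.9 in Bell-L and 33.4 in Bell-B. Thbs4 was most like Rassf2 (0.965), Lcp2, Sparcl1, Cpne5 and Dkk1, the last a secreted Wnt inhibitor (0.951). Mkx was most like Nhs (0.907), Wdr86, Runx2, Slc12a5 and CJ186046Rik (0.901). Runx2, the transcription factor of bone formation, was at 444 ± 20.6 CPM in Cap-L and 241 ± 3.20 in Cap-B, and its correlation with Mkx without the Cap-W libraries was 0.959, the 2nd highest of 14031 genes.

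Scx was most like Mcm7 (0.865), a replication helicase subunit, Gm6736, Rad21, Gm6593 and Dhx29 (0.837), and this list rested on Cap-W. Without those 3 libraries the ranks of these 5 genes among 14032 lay between 122 and 355. The highest were then Asic1 (0.879), the proteoglycan gene Prelp (0.870), Nxn, Mmp17 and Col26a1 (0.847), of which Prelp is on the tendon matrix list. Over the same 21 libraries S100a6 remained first for Tnmd (0.976), and Msx2, a homeobox gene of dental mesenchyme and bone, came first for Thbs4 (0.984). Six2 came first for Mkx (0.959). The choice to leave Cap-W out was made after its values were seen.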

How the data were processed

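The authors deposited 1 table of read counts per gene for the 24 libraries. Per the file headers, featureCounts 2.0.0 counted read pairs over exons of the Ensembl GRCm39 annotation without strand, leaving out reads shared by several genes or places. Per the labels, FastQC 0.12.1, Trimmomatic 0.39, Bowtie 1.2.3, Subread 2.0.3 and DESeq2 1.40.2 were used, while the study's methods name STAR and Cutadapt. The labels and the methods name different library kits.

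Groups followed the sample titles. Counts were fitted with edgeR 4.0.16 in R 4.3.3 (TMM normalization, filterByExpr, quasi-likelihood test, Benjamini-Hochberg adjustment over all genes tested) on the libraries of each comparison, and a gene was called where its adjusted p was below 0.05 and its log2 fold change exceeded 0.5 in size (for interactions, the adjusted p alone). An exact permutation test of 3 libraries against 3 cannot go below p = 0.1 and was not used. Levels are CPM with TMM over all 24 libraries, and 3 reads correspond to 0.0764 to 0.146 CPM. The fitting was tested on simulated data. Alternatives were RLE, DESeq2 1.42.0, 2 other filters, 1 fit of all libraries, a replicate block, 2 changes of scaling and each library left out.

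The members and gene lists were chosen with earlier results of these data known. Named were the 4 genes, Bop1, the relatives, Myod1, Myog, Myh3 and Acta1. From the 2 tendon lists, the up to 4 called genes of largest change in each direction were named, at an average log2 CPM of at least 2, for sides, stages and culture against fresh tissue. For interactions and culture against bell the lists are not reported here. Of the genes this rule names, 1 is not reported here. From the other lists at most 2 called genes were named, with markers at 0, and for each member the 5 genes most correlated with it. Beyond these, Matn1 was at 0 in Cap-L and Bell-W, Snorc in Bell-B and Tcf21 in Bell-W. Replicate numbers were not used to pair the samples, since the sources used here do not say whether they mark pairs.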

Additional observations from a re-analysis of the deposited data

Results flagged for a closer look

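A tested difference of the same contrast between conditions singled out 4 values. The signed buccal-over-lingual log2 difference rose from cap to bell by 0.53 for Scx, 0.73 for Tnmd and 0.61 for Mkx. The buccal excess of Scx widened, and the lingual excess of Tnmd and Mkx narrowed. For Thbs4 the difference changed by -2.17 after culture against the fresh cap tissue. The edgeR adjusted p were 0.0384, 1.68e-04, 3.06e-06 and 1.03e-19, beside 32.5% of all genes that passed the stage test and 35.5% that passed the culture test. For Scx, whose host gene Bop1 had 0.42 in the same stage test, the value was lost when 1 of 7 libraries was left out, as named above.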

How the results depend on the processing

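Each of 48 values (4 genes in 12 comparisons) was recomputed under 8 settings beside the leaving out of libraries. All 48 kept their direction and their side of the threshold without the filter, without the 100 most abundant genes or the muscle genes in the scaling, and with the replicate block. Under that block the Scx side difference was 0.62 in the cap and 1.14 in the bell tissue. Same-numbered libraries of the 4 pairs of groups had mean correlations of their deviations of -0.081, 0.0533, 0.0514 and 0.0917, over 14046 genes, and the numbers were not read as pairs. In Cap-W and Bell-W each library correlated best with its own number, a hint from the data only. With all 24 libraries in 1 fit, Scx at the cap stage (0.59, adjusted p = 0.0860), Mkx at the bell stage (-0.53, adjusted p = 0.0509), and the stage interactions of Scx (0.55) and Mkx (0.63) passed no longer, which left 1 member in that interaction, and in DESeq2 the Scx interaction (0.54) did not pass. Bell over cap in the lingual part, Mkx had -0.4996 under RLE and -0.4951 with at least 10 counts in every library. Under that filter, Mkx cultured over bell in the lingual part reached -0.5004, which made 2 members called there, and the Thbs4 stage interaction passed (-0.17, adjusted p = 0.0442). The cause was not tested in these cases.

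With 1 library left out, which leaves 2 in its group, the side difference of Thbs4 at the cap stage ran from -0.035 to 0.013 and that of Mkx at the bell stage from -0.58 to -0.48. In the undivided mesenchyme, bell over cap, Scx ran from -1.63 to -0.94 and Mkx from -0.37 to 0.18. The sign of Mkx turned without Cap-W replicate 2 (0.18) or Bell-W replicate 3 (0.01). In the lingual part, bell over cap, Scx ran from -0.50 to -0.24 and passed without Cap-L replicate 3, and Mkx ran from -0.53 to -0.47. Cultured over fresh in the lingual part, Scx ran from -0.072 to 0.21. It was below 0 without Cap-L replicate 1 (-0.01) or 3 (-0.05) or Cap-L + 2D replicate 3 (-0.072). Cultured over bell in the lingual part, Scx ran from 0.34 to 0.54 and Mkx from -0.53 to -0.46, with 1 to 2 members called. Scx passed there without Cap-L + 2D replicate 2, and Mkx without Cap-L + 2D replicate 3 or Bell-L replicate 1. The stage interaction of Scx ran from 0.38 to 0.64 and that of Thbs4 from -0.20 to -0.14, which passed without Cap-L replicate 2 or Bell-B replicate 1. The culture interaction of Tnmd ran from 0.25 to 0.45 and passed without Cap-B replicate 1, with 1 to 2 members called. Depth limits Scx, at 49 to 294 reads per library, and Tnmd in Cap-W and Cap-B, at 32 to 69.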
